A study of Andropogon gerardi with 36 samples.

Results

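A set of 8 arrays of big bluestem RNA compared plot 2 with plot 3 of a field experiment at the Konza prairie, chosen because the title of each array gives these plots for its 2 channels. They are 8 of the 36 arrays listed for the series and of the 35 with values; 34 of those compare partner plots, in 6 pairs. Big bluestem (Andropogon gerardi) is a perennial C4 grass of the North American tallgrass prairie, here hybridised to spotted arrays made for maize, a relative. The study set warming against altered soil moisture in 12 plots under rainout shelters. Which plots and subplots had which treatment, the tissue and the number of plants behind an RNA are not named by these sources, and no value below can be assigned to a treatment.

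The arrays came from the sampling times labelled June, JulyA, JulyB and Aug, with 2 arrays at each. At each time 1 array compared subplot 1 of both plots, and the other compared subplot 4 of plot 2 with subplot 2 of plot 3. Plot 2 was in the Cy5 channel on 5 arrays, which were both June arrays, both JulyA arrays and the August array of subplots 2 and 4. Plot 3 was in Cy5 on the other 3 arrays, which were both JulyB arrays and the August array of subplot 1. Time and dye orientation are therefore mixed: June and JulyA were run one way and JulyB the other, and the August arrays, run both ways, also differed in subplot. The labels write each RNA as a plot, a subplot digit and a letter. The JulyA and JulyB arrays of subplot 1 carry the same 2 codes with the dyes exchanged, and the JulyA and August arrays of subplots 2 and 4 carry the same 2 codes in the same orientation. Linked through common codes, they fall into 2 sets, so tests over 8 arrays take as separate some that may come from the same plants.

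Each deposited value was the log10 of a ratio between the channels of an array, converted here to log2. Whether the ratio is Cy5 over Cy3 is not stated, so a positive value does not say which plot had more of a transcript. Each result is given both as deposited and turned to plot 2 over plot 3, which takes the ratio as Cy5 over Cy3 and changes the sign on the 3 arrays with plot 3 in Cy5. A difference between the plots should change sign with the dyes if all deposited ratios run the same way. A preference of a probe for a dye should not. With 5 arrays one way and 3 the other, such a preference does not cancel fully from a mean of turned ratios. Whether some ratios had been turned before deposit is also not stated. If they had been turned to a common plot order, a plot difference would keep its sign as well, so on these 8 arrays alone it cannot be told apart from a dye preference.

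Few of the annotated genes can be described by function. Of 19200 probes, 1800 carried 1 gene symbol and 23 several, and of the 583 symbols 539 were locus numbers with no description. MNB1b, which has 230 probes, encodes a maize chromatin protein of the HMG-box type, a family of abundant small proteins that bind and bend DNA. The mbd genes encode proteins with a methyl-CpG-binding domain, the part that recognises methylated DNA in chromatin. The hsp70-4 and hsp70-5 genes belong to a family of heat shock chaperones that bind unfolded proteins and are induced by heat in plants. TCTP is the translationally controlled tumor protein, a conserved protein linked to growth, Sod4A is a superoxide dismutase, which removes superoxide radicals, and RPL27A is a protein of the large ribosomal subunit. Of 22 lists of genes on processes such as photosynthesis, water deficit and hormones, 15 matched no annotated probe.

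The arrays differed in how many probes had a value. The lowest number was 3144, on the JulyB array of subplot 1, and the highest was 9530, on the August array of subplot 1, with 6999 on the other August array and 3272 to 4890 on the remaining 5. The arrays with plot 2 in Cy5 had 4500.8 ± 1537.83 values (SD, n = 5) and those with plot 3 in Cy5 had 5496 ± 3509.57 (n = 3), a difference within their spread (exact two-sided permutation test over 56 arrangements, p = 0.679). The scaled median absolute deviation of the log2 ratios ran from 0.481 on the August array of subplot 1 to 0.747 on the JulyB array of subplot 1. It was 0.575 ± 0.0857 and 0.613 ± 0.133 in the same orientations (exact permutation p = 0.643). The array medians lay between -0.0123 and 0.0127 on the log10 scale, and single log10 values between -1.425 and 1.001.

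Many probes had no value on some arrays, most often before August. Values were present on all 8 arrays for 775 probes, of which 171 had a symbol, on 7 arrays for 758 and on 6 for 846, while 6844 probes had none. The probes with a value on both arrays of a time numbered 2233 for June, 2331 for JulyA, 1989 for JulyB and 5551 for August. Of the August probes, 1001 had no value on any array of another time, against 9 to 14 for the earlier times. Signal over background is not in the deposited values, so a missing value cannot be read as a low transcript level.

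Arrays run with exchanged dyes resembled each other as deposited. All 15 pairs of arrays of opposite orientation correlated above 0 across the probes they shared, from 0.0387 to 0.395 with a mean of 0.153. The 13 pairs of the same orientation had a mean of 0.105, with 11 above 0. Turning to plot 2 over plot 3 leaves the second set as it is and makes every one of the 15 negative, with a mean of -0.153. These are descriptions across probes, which are not independent, and pairs of arrays share arrays.

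**Figure D1:**
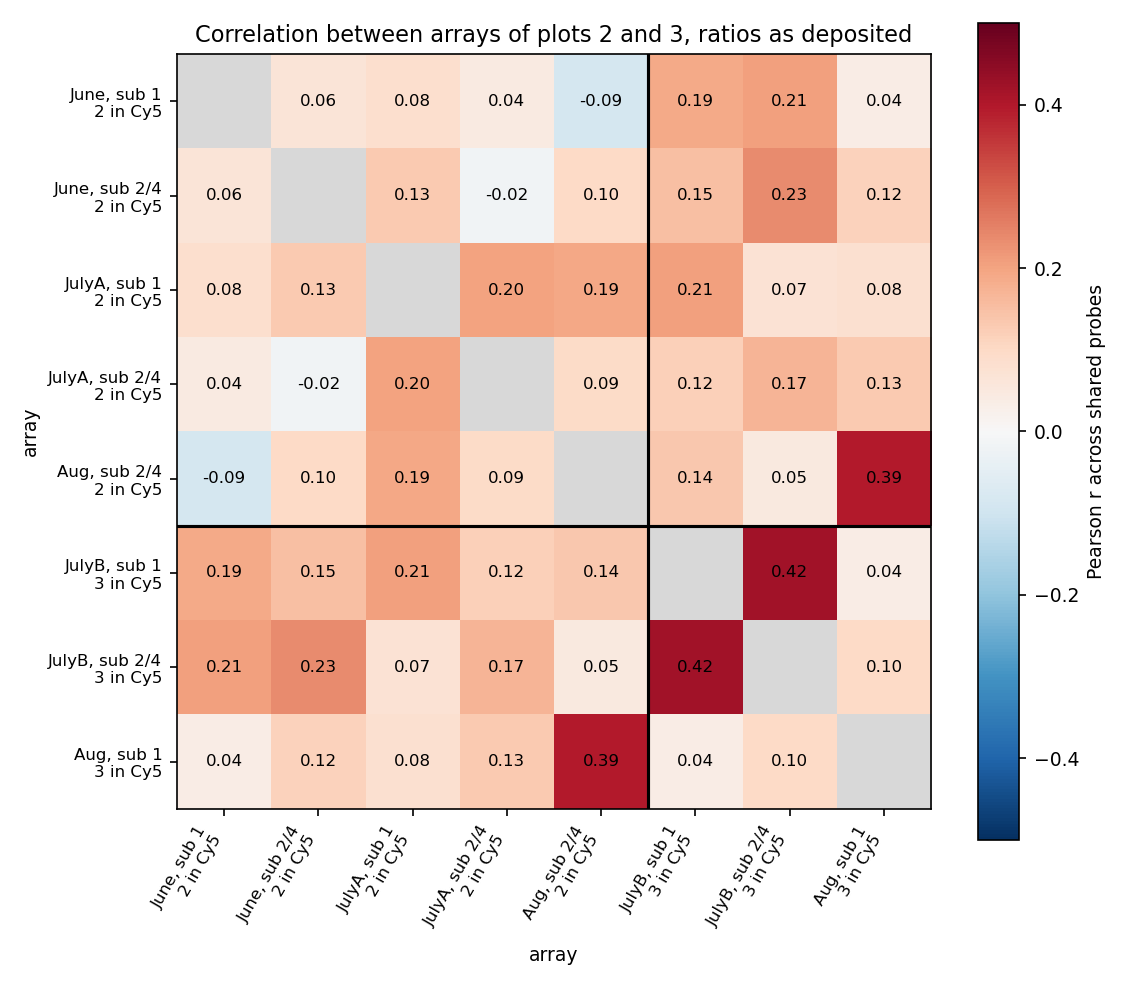
Heat map of Pearson's r between the 8 arrays of plots 2 and 3 across shared probes, ratios as deposited; rows and columns are arrays named by sampling time, subplots (sub) and the plot in Cy5, and black lines separate the 2 dye orientations. Every cell between orientations is above 0, and the JulyB pair and the August pair have the highest values, 0.42 and 0.39.

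The strongest resemblances were within JulyB and within August. The JulyB arrays, from different subplots but of the same orientation, had r = 0.419 over 1989 probes. The August arrays, from different subplots and of opposite orientation, had r = 0.395 over 5551 probes as deposited and -0.395 when turned. The June pair had r = 0.0650 and the JulyA pair r = 0.202, both below the 0.235 between the June and JulyB arrays of subplots 2 and 4. Same-time pairs had a mean of 0.270 (4 pairs) and pairs of different times 0.108 (24 pairs). Without the August pair, the 14 pairs of opposite orientation came from different times and all stayed above 0, with a mean of 0.136, against 0.0680 for the 10 pairs of different times and the same orientation. On the 775 probes with values on all 8 arrays 13 of the 14 were above 0, the exception being the June and August arrays of subplot 1, at -0.0197.

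Shared plant codes did not mark the closest arrays. The JulyA and JulyB arrays of subplot 1, with the same codes and exchanged dyes, had r = 0.206 over 1706 probes as deposited and -0.206 turned. The JulyA and August arrays of subplots 2 and 4, with the same codes in the same orientation, had r = 0.0944 over 3563 probes. The 8 pairs that shared a code averaged 0.133 and the 20 that shared none 0.130.

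Probe by probe, the means of both orientations leaned the same way. Over the 2273 probes measured on 6 or more arrays and on 2 or more of each orientation, of which 478 had a symbol, the mean of the 5 arrays with plot 2 in Cy5 and that of the 3 with plot 3 in Cy5 correlated as deposited (Pearson r = 0.403, Spearman rho = 0.408, across probes). They had the same sign for 1385 probes (60.9%). Among probes whose means both exceeded 0.5 in size, 88 had the same sign and 12 opposite signs.

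**Figure D2:**
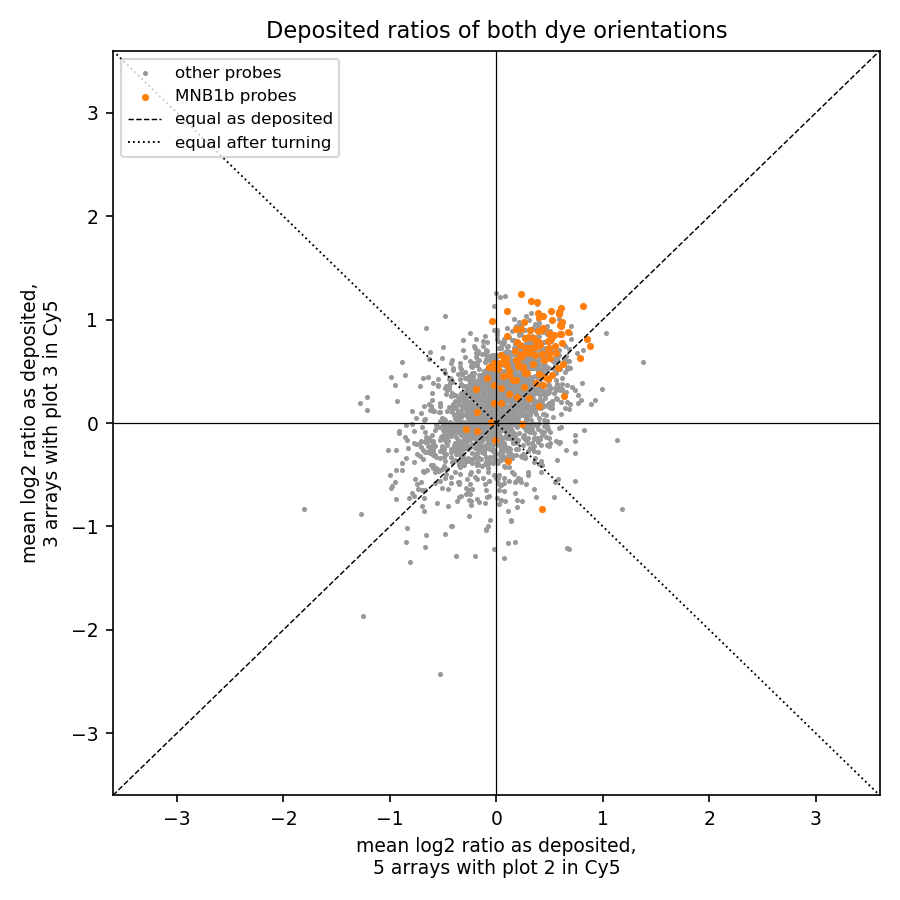
Scatter plot of the mean log2 ratio as deposited on the 5 arrays with plot 2 in Cy5 (horizontal) against that on the 3 arrays with plot 3 in Cy5 (vertical), 1 point per probe, 2273 probes, with the 116 MNB1b probes in orange. The cloud leans along the line of equality as deposited (r = 0.403), and the MNB1b probes lie mostly where both means are positive.

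The sign over single arrays shows the same. Of the 775 probes on all 8 arrays, 10 were positive and 12 negative on every array as deposited (2.84%), and 124 (16.0%) had at least 7 arrays of one sign. When turned, 0 were positive and 5 negative on every array (0.645%), and 44 (5.68%) had at least 7 of one sign. The annotated probes among the 22 were LOC542454 (probe 931) and LOC542371 (probe 2499), both positive, and LOC542316 (probe 2840) and LOC542251 (probe 1328), both negative. Of the 5 when turned, LOC542301 (probe 11347) had a symbol and a mean of -0.38 ± 0.46 (SD, n = 8), while probes 455, 2130, 5730 and 7695 had none.

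The first comparison asked whether plots 2 and 3 differed once a dye term common to both orientations was allowed for. Limma, with Benjamini-Hochberg adjustment over all probes tested, called 0 of the 2273 (0.0%) for the plot difference. An unadjusted p under 0.05 was reached by 90 (3.96%, 22 positive and 68 negative), and the smallest adjusted p was 0.946. That share was 9.16% of 1605 probes without the August array of subplot 1, 2.19% of 1917 without the JulyB array of subplot 1 and 1.87% of 1707 without the other JulyB array. The mean of the turned ratios also gave 0 calls (0.0%), with 62 probes at an unadjusted p under 0.05 (2.73%, 17 positive and 45 negative), or 4.8% of 1605 without the August array of subplot 1. The excess of negative values moved with the level of the arrays: the tested probes had medians of 0.21 and 0.15 on the JulyB arrays and 0.12 on the August array of subplot 1, against -0.11 to 0.06 on the 5 arrays with plot 2 in Cy5. With each array centred on the tested probes, the counts were 57 (38 positive) for the plot difference and 49 (27 positive) for the turned mean.

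An hsp70-4 probe came near the top of the annotated probes for the plot difference. Probe 12553 as deposited had -0.26 and -0.34 on the JulyA arrays (subplot 1, then subplots 2 and 4) and -0.43 on the August array of subplots 2 and 4, all with plot 2 in Cy5. It had 0.65 and 0.45 on the JulyB arrays and 0.65 on the August array of subplot 1, all with plot 3 in Cy5, and no value in June. The orientations did not overlap, and turned to plot 2 over plot 3 all 6 values were negative, at -0.46 ± 0.16 (SD, n = 6). The probe was named for its small p in this comparison, so that separation adds no support. The limma estimate was -0.46 ± 0.16 (SE; adjusted p = 0.946), so it did not pass. A further hsp70-4 probe, 4164, was negative on 7 of 7 arrays when turned, at -0.38 ± 0.36 (SD, n = 7; limma adjusted p = 0.999 in the turned mean).

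Taken over all their probes, the hsp70 genes did not keep 1 sign in either form. The mean over hsp70-4 probes as deposited was 1.01 in June on the subplot 1 array and -0.46 on the other, followed in JulyA by -0.34 and -0.48. The JulyB arrays had -0.02 and 0.04. It was 0.24 on the August array of subplot 1 and -0.73 on the other. Turned, the JulyB values became 0.02 and -0.04 and the first August value -0.24, so that 2 arrays were positive and 6 negative, with a mean of -0.16 ± 0.53 (SD, n = 8). The June array of subplot 1 lay far above the rest, and without it the turned mean was -0.32 ± 0.26 (SD, n = 7). The hsp70-5 probes gave 0.76 on that June array and -0.18 ± 0.49 (SD, n = 8) over all arrays, both as deposited and turned. Of 18 hsp70 probes tested, 3 had a positive mean as deposited, beside 1361 of all 2273, and 2 when turned, beside 789. The lean to negative means was thus present in both forms. When turned 2 had an unadjusted p under 0.05, beside 62 of all 2273, and as deposited 0, beside 409. Those probes moved together across arrays (median r = 0.85 between probes of the 2 genes), so they are not 18 separate observations.

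The remaining annotated probes with the smallest p for the plot difference were of unnamed loci, apart from MNB1b. LOC541934 (probe 1331) turned had 0.86 and 0.56 on the June and JulyA arrays of subplot 1, 1.08 and 0.65 on the JulyB arrays, and -0.03 and 0.24 in August. It was positive on 5 of 6 arrays, with an estimate of 0.56 ± 0.19 (SE; limma adjusted p = 0.946). LOC541952 (probe 9304) had -0.57 ± 0.18 (SE), negative on 6 of 6 arrays when turned, and MNB1b (probe 469) had -0.52 ± 0.18 (SE), negative on 5 of 6. The largest estimate of these 10 was that of LOC542316 (probe 6508), at 0.95 ± 0.32 (SE), positive on 3 of 6 arrays when turned. The others were LOC541902 (probe 15788) at 0.48 ± 0.18, LOC542479 (probe 15338) at -0.65 ± 0.24, LOC542598 (probe 9791) at -0.37 ± 0.14, LOC541886 (probe 5135) at -0.49 ± 0.19 and LOC542737 (probe 11787) at -0.73 ± 0.29. All of them had a limma adjusted p of 0.946. The turned mean named some of these again (LOC541934, LOC541952, LOC542479 and LOC541886) and added LOC542126 (probe 6734) at -0.53 ± 0.20 (SE), LOC542366 (probes 8255 and 11226) at -0.48 ± 0.20 and -0.49 ± 0.21, and LOC542445 (probe 2842) at -0.42 ± 0.18, each with an adjusted p of 0.999.

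The same fit estimates what did not change sign with the dyes. For this dye term limma called 0 of the 2273 (0.0%), and 397 had an unadjusted p under 0.05 (17.5%, 294 positive and 103 negative), with a smallest adjusted p of 0.0958. The mean of the 8 arrays as deposited gave 0 calls (0.0%), with 409 at an unadjusted p under 0.05 (18.0%, 279 positive and 130 negative) and a smallest adjusted p of 0.054. With each array centred on the tested probes the splits were 196 positive of 357 for the dye term and 217 positive of 399 for the mean as deposited. Without both JulyB arrays, left out after the data were seen, the share for the mean as deposited was 251 of 2146 (11.7%). The dye term's share was also lower there. Only 1 array with plot 3 in Cy5 then remains, which makes that term less precise. Whether the JulyB values themselves set its share was therefore not tested. In a fit on all 6 pairs, where the dye term is shared by the pairs, its share was 119 of 1668 (7.13%). Only plots 2 and 3 and plots 7 and 10 were run in both orientations. The other pairs thus give that dye term no estimate and add only their spread, and the probes tested also differ. With only 1 of the 8 arrays left out, the dye term's share in the fit of plots 2 and 3 ran from 12.9% to 18.7%.

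**Figure D3:**
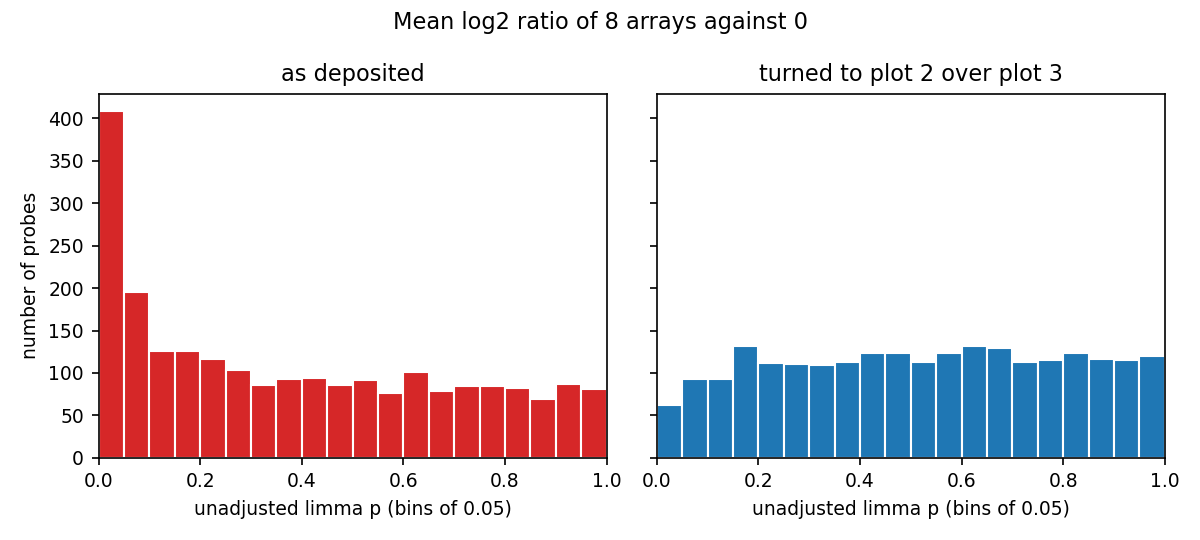
Histograms of the unadjusted limma p of 2273 probes, in bins of 0.05, for the mean log2 ratio of the 8 arrays against 0, as deposited (left) and turned to plot 2 over plot 3 (right). The lowest bin holds 409 probes as deposited and 62 turned. A part that keeps its sign across orientations as deposited becomes spread once turned, and the reverse. The 2 counts are therefore not those of separate, equally sensitive tests.

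MNB1b had more of these probes than any other gene with a name. Its mean over probes as deposited was 0.55 on the June array of subplot 1, 0.20 and 1.22 on the JulyA arrays (subplot 1, then subplots 2 and 4) and 0.13 on the August array of subplots 2 and 4. On the arrays with plot 3 in Cy5 it was 0.53 and 0.70 in JulyB and 0.48 in August. The exception was the June array of subplots 2 and 4, at -0.24. The values of the 3 arrays with plot 3 in Cy5 lay within the range of the other 5. Of 116 MNB1b probes tested, 110 had a positive mean as deposited (median 0.47) and 67 an unadjusted p under 0.05 (57.8%), beside 342 of the 2157 other probes (15.9%), whose median was 0.05. Turned, 46 were positive (median -0.04) and 1 had an unadjusted p under 0.05 (0.862%). Of the 2157 other probes 743 were positive when turned and 61 had an unadjusted p under 0.05 (2.83%). No MNB1b probe passed the adjusted threshold either way. The median r between MNB1b probes was 0.75, so their count is not one of separate observations.

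Outside plots 2 and 3 the MNB1b mean as deposited varied in sign between and within pairs, and the difference from plots 2 and 3 was not tested for this mean. It was -0.10 ± 0.59 over the 26 arrays of the other pairs (SD), positive on 9 of them. It was positive on 3 of 7 arrays of plots 4 and 5, 3 of 8 of plots 6 and 9, and 0 of 4 each of plots 7 and 10 and of plots 11 and 12. On plots 13 and 15 it was positive on 3 of 3 arrays, at 0.56 ± 0.08 (SD). The array labelled with 1 plant code in both channels gave 0.38, but its ratios had a median of -0.40 and a scaled median absolute deviation of 1.33.

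Among the mbd genes, mbd115 had the opposite sign to MNB1b on most arrays as deposited. Its mean over probes was 0.18 on the June array of subplot 1 and negative on the other 7, from -0.27 on the other June array to -0.89 on the August array of subplot 1. These means took 3 probes on the JulyB array of subplots 2 and 4 and 11 on that August array, so they compare different probes. The mbd115 mean over arrays was -0.47 ± 0.35 (SD, n = 8) as deposited and -0.05 ± 0.61 turned. Of its 3 probes tested, 3 had a negative mean as deposited and 1 an unadjusted p under 0.05, beside 409 of all 2273 (18.0%), and 0 passed after adjustment. The related mbd106 was measured on 6 arrays, at -0.02 ± 0.34 (SD) as deposited and 0.16 ± 0.29 turned, with 3 probes tested and 0 at an unadjusted p under 0.05. On 24 arrays of the other pairs mbd115 averaged -0.23 ± 0.47 (SD), positive on 8.

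**Figure D4:**
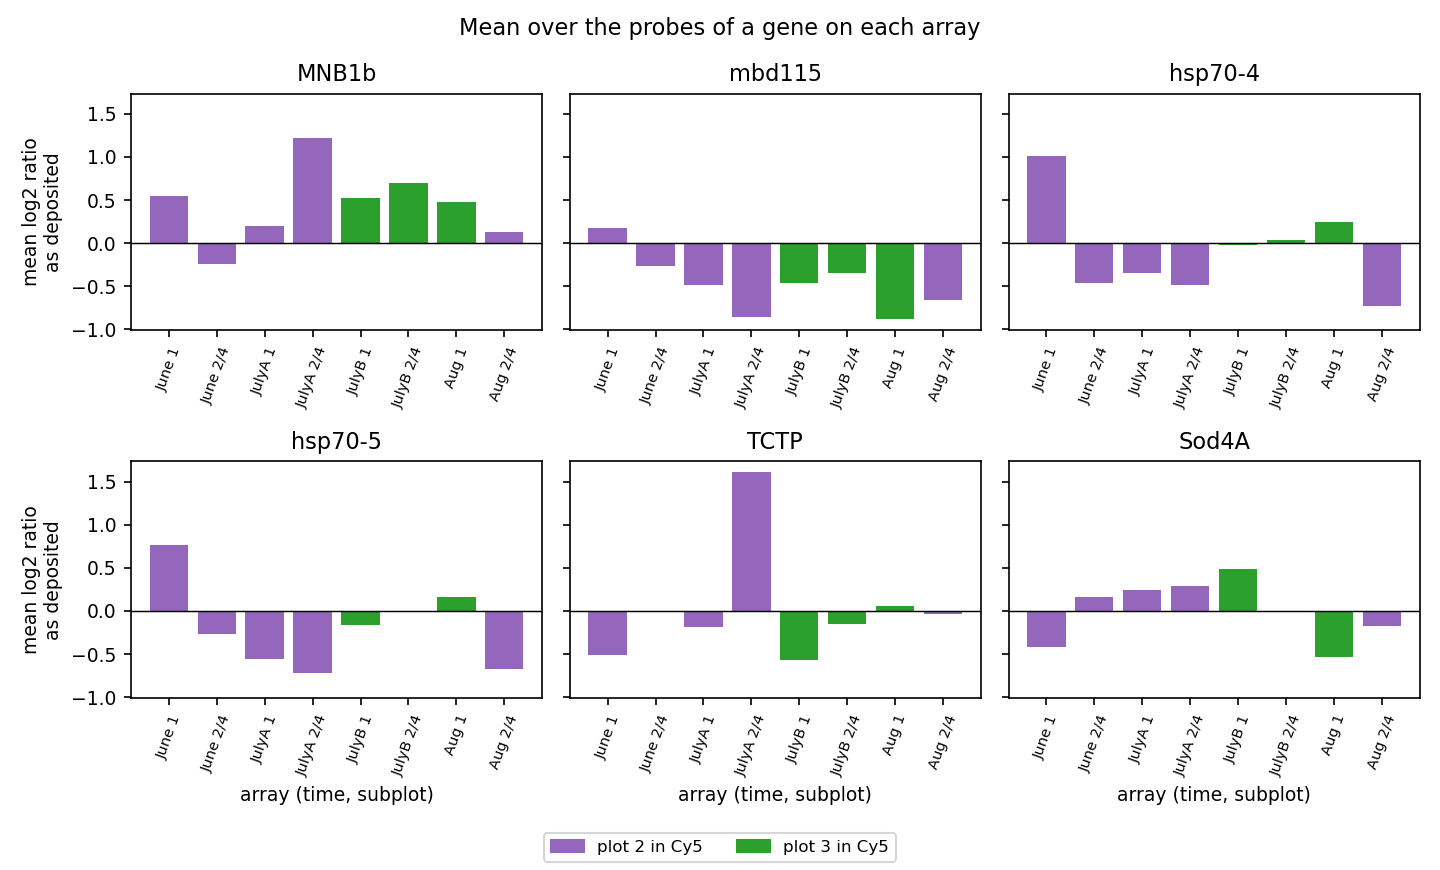
Bars show the mean log2 ratio as deposited over all measured probes of a gene on each of the 8 arrays, named by sampling time and subplots and coloured by the plot in Cy5; no bar has an error, since each is 1 array. MNB1b is positive on 7 arrays and mbd115 negative on 7, TCTP reaches 1.61 on 1 JulyA array and the hsp70 genes are highest on 1 June array.

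TCTP was dominated by 1 array. As deposited its mean over probes was 1.61 on the JulyA array of subplots 2 and 4, and between -0.57 and 0.05 on the other 7. Over 8 arrays it was 0.03 ± 0.68 (SD) as deposited and 0.19 ± 0.65 turned, and without that array it was -0.20 ± 0.25 and -0.01 ± 0.33 (SD, n = 7). The August array with the same 2 plant codes in the same orientation had -0.03. As deposited 7 of the 9 TCTP probes tested had a positive mean, beside 1361 of all 2273. When turned all 9 did, beside 789 of all 2273. Of the 9, 0 had an unadjusted p under 0.05, beside 62 of all 2273 (2.73%), a share at which 0 of 9 says little. Their median r with each other was 0.87, so they are not separate observations.

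Sod4A and RPL27A scattered around 0. Sod4A as deposited ran from -0.53 on the August array of subplot 1 to 0.49 on the JulyB array of subplot 1, with 4 arrays positive, a mean of 0.01 ± 0.36 (SD, n = 8) as deposited and 0.02 ± 0.36 turned. Of 13 Sod4A probes tested 0 had an unadjusted p under 0.05 in either form. Of all 2273 probes 409 (18.0%) did as deposited and 62 (2.73%) when turned. RPL27A ran from -0.32 to 0.37 and averaged -0.04 ± 0.22 (SD, n = 8), or 0.04 ± 0.22 turned, with 3 probes tested and 0 at an unadjusted p under 0.05. Of 14 tubulin probes 1 could be tested, and of 4 probes of opr genes, for oxophytodienoate reductases, 0.

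The locus LOC542316 had the probe with the smallest p among annotated probes, both for the dye term and as deposited. Probe 2840 as deposited had -0.66 and -0.30 in June (subplot 1, then subplots 2 and 4). The JulyA arrays gave -0.86 and -0.59, the JulyB arrays -0.63 and -0.67. In August it had -1.02 on the subplot 1 array and -0.40 on the other. It was negative on 8 of 8 arrays, at -0.64 ± 0.23 (SD, n = 8; limma adjusted p = 0.0922), and the orientations overlapped. Turned it was -0.06 ± 0.72 (SD, n = 8). It did not pass among the 2273 probes, but it passed when the fit was limited to the 775 with values on all 8 arrays (limma adjusted p = 0.0339).

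A second LOC542316 probe behaved differently. Probe 6508 was -3.16 and -3.46 on the JulyB arrays, while the remaining values were -0.17 and -0.26 in June, -1.17 on the JulyA array of subplots 2 and 4 and -0.66 on the August array of subplot 1. Its mean as deposited was -1.48 ± 1.46 (SD, n = 6; limma adjusted p = 0.135), and the JulyB arrays set most of it. Without the August array of subplot 1 the dye term of this probe was -1.92 and passed (limma adjusted p = 0.00708).

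Other annotated probes were positive on every array that measured them, or on all but 1. LOC542454 (probe 931) had 0.64 and 0.48 on the June arrays, 0.19 and 0.06 on those of JulyA, 1.42 and 1.03 on those of JulyB, and 0.34 and 0.56 on those of August, at 0.59 ± 0.45 (SD, n = 8; limma adjusted p = 0.129 as deposited). The JulyB arrays were its highest. LOC542371 (probe 2499) was 0.55 ± 0.38 (SD, n = 8), from 0.20 on the JulyA array of subplots 2 and 4 to 1.12 on the June array of the same subplots. MNB1b probes 12499 and 7688 had 0.81 ± 0.35 (SD, n = 6) and 0.95 ± 0.68 (n = 7), and MNB1b probe 2579, positive on 7 of 8 arrays, had 0.77 ± 0.54. LOC542641 (probe 4446), LOC542323 (probe 4175) and LOC542449 (probe 2947) were positive on 6 of 6 arrays, at 0.65 ± 0.25, 0.69 ± 0.40 and 0.55 ± 0.31, and LOC542719 (probe 4875) on 6 of 7, at 0.64 ± 0.56. Limma adjusted p as deposited ran from 0.128 to 0.16 for these probes other than LOC542316.

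**Figure D5:**
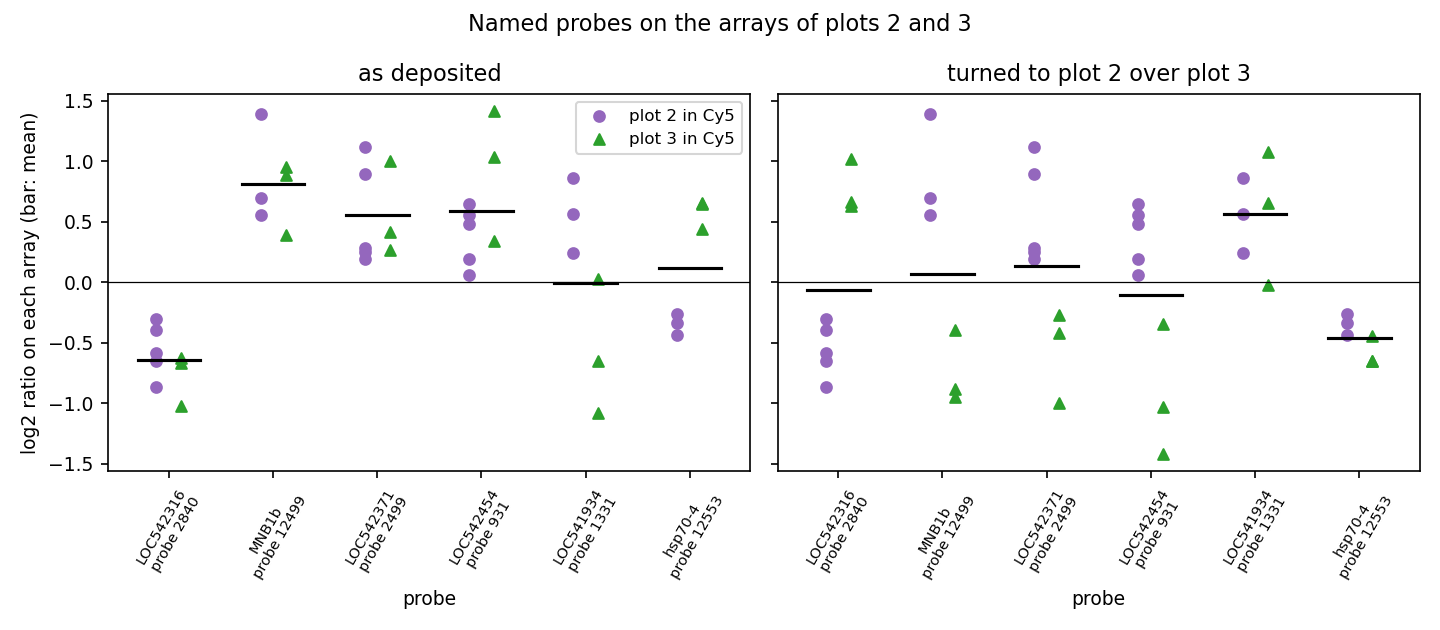
Points are the log2 ratios of 6 named probes on single arrays, as deposited (left) and turned to plot 2 over plot 3 (right), with circles for the arrays with plot 2 in Cy5, triangles for those with plot 3 in Cy5 and a black bar for the mean. LOC542316, MNB1b, LOC542454 and LOC542371 keep 1 sign as deposited, so turning, which changes the sign for 1 orientation, must split them. By the same arithmetic hsp70-4 splits as deposited and keeps 1 sign when turned. LOC541934 has 5 of 6 values positive when turned. All 6 probes were picked by these same values.

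Whole loci with 5 or more tested probes gave a mixed picture. The mean over LOC542458 probes was positive on 8 of 8 arrays as deposited, from 0.02 on the JulyA array of subplots 2 and 4 to 1.003 on the JulyB array of subplot 1, with a mean of 0.37 ± 0.30 (SD, n = 8). That of LOC542641 was positive on 8 of 8, at 0.29 ± 0.20, but on the JulyB arrays its 0.14 and 0.13 lay below the medians of the tested probes there, 0.21 and 0.15. LOC542737 went from 1.70 on the June array of subplot 1 to -1.07 on the August array of subplots 2 and 4, and averaged 0.02 ± 0.91 (SD, n = 8). Its probes moved together (median r = 0.93), whereas those of LOC542725 did so little (median r = 0.19), so the mean of that locus describes no common pattern.

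For 21 of the 775 probes on all 8 arrays (2.71%) the values of both orientations did not overlap as deposited, and all 21 were lower on the arrays with plot 2 in Cy5. After centring each array on the tested probes 12 did not overlap (1.55%), 5 higher and 7 lower on those arrays.

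The second comparison asked whether the difference between plots changed over the season. In the test of the 4 times with turned ratios limma called 0 of 775 (0.0%), while 91 reached an unadjusted p under 0.05 (11.7%), with a smallest adjusted p of 0.294. Without the JulyB array of subplot 1 that count was 33 (4.26%) and without the other JulyB array 52 (6.71%), while without 1 August array it was 145 (18.7%) or 157 (20.3%). As deposited it called 0 (0.0%), with 101 (13%) and a smallest adjusted p of 0.0639. Because June and JulyA were run in one orientation and JulyB in the other, a change between these times and a dye effect cannot be told apart.

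MNB1b led the annotated probes in the turned ratios. Probe 2579 turned had 0.57 and -0.19 on the June arrays, 1.05 and 1.31 on those of JulyA, -1.14 and -1.30 on those of JulyB, and -0.74 and 0.21 on those of August. JulyA minus June was 0.99 and JulyB minus June was -1.41 (limma adjusted p = 0.294). The JulyA and JulyB values of this probe have the same sign as deposited, so the contrast of these times rests on the turning. MNB1b probe 2554 gave 0.87 and -1.45 for the same differences, and LOC542454 (probe 931) gave -0.44 and -1.79. LOC542737 (probe 12526) had 1.92 and 0.73 in June and -0.53 and -0.31 in JulyA, run in the same orientation, and did not pass (limma adjusted p = 0.294). TCTP (probe 6017) had -0.84 and -0.20 in June and 0.91 and 1.65 in JulyA, also in the same orientation, with a JulyA minus June difference of 1.80 (limma adjusted p = 0.294). On these last probes June and JulyA did not overlap, but they were picked by the smallest p of this test, so that separation adds no support.

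The third comparison set the subplot 1 arrays against those of subplots 2 and 4. It asks whether the difference between plots varied with the subplots, and compares no subplots directly. Plot 3 was in Cy5 on the JulyB and August arrays of subplot 1, but only on the JulyB array of subplots 2 and 4. The test has no dye term, so a dye effect does not cancel from the turned contrast. When turned, limma called 0 of 2033 (0.0%), and 69 reached an unadjusted p under 0.05 (3.39%), with a smallest adjusted p of 0.328. That share ran from 2.12% without the August array of subplots 2 and 4 to 5.76% without the JulyB array of those subplots. Limma called 0 (0.0%) as deposited, with 52 (2.56%). LOC542737 came first among annotated probes: probe 12434 turned had 2.78, 0.21 and 0.70 on the June, JulyB and August arrays of subplot 1. It had -0.69, -0.34 and -1.18 on the JulyA, JulyB and August arrays of subplots 2 and 4. The difference was 1.97 ± 0.60 (SE; limma adjusted p = 0.941), and the kinds of array did not overlap on this probe. The probe was picked by the smallest p of this test, so that separation adds no support. LOC542737 probe 11787 had 1.51 ± 0.50, LOC542537 (probe 10477) 1.14 ± 0.39, hsp70-5 (probe 16151) 1.08 ± 0.37 and LOC542389 (probe 829) 1.30 ± 0.46 (SE; each with a limma adjusted p of 0.941).

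The last comparison set the deposited ratios of plots 2 and 3 against the average of the 5 other pairs. Limma called 7 of the 1668 tested (0.42%), 6 lower and 1 higher in plots 2 and 3, and 227 had an unadjusted p under 0.05 (13.6%). These p-values measure the spread between arrays within pairs, not that between pairs. Plots 4 and 5, 6 and 9, 11 and 12, and 13 and 15 each had the same plot in Cy5 on every array. Plots 7 and 10 were run both ways. The deposited means of the pairs may therefore mix plot and dye differently. The 7 are named because they passed, after their values were seen. The called probes with a symbol were LOC542316 (probe 2840), at -0.86 ± 0.20 (SE; limma adjusted p = 0.0326), and MNB1b (probe 12499), at 0.93 ± 0.22 (SE; adjusted p = 0.0373). On 26 arrays of the other pairs LOC542316 (probe 2840) averaged 0.10 ± 0.73 (SD), from -1.31 to 1.45, a range that holds all 8 values of plots 2 and 3. MNB1b (probe 12499) averaged -0.19 ± 0.53 (SD) on 24 arrays, with a highest value of 0.61, above 2 of the 6 values of plots 2 and 3, which ran from 0.39 to 1.39.

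The other 5 called probes had no symbol. Probe 2951 had -1.0 ± 0.19 (SE; limma adjusted p = 0.0149) and was negative on 7 of 8 arrays. Probes 2096, 901 and 938 had -1.13 ± 0.24, -0.94 ± 0.21 and -1.02 ± 0.23 (SE; each with a limma adjusted p of 0.0293), and probe 2904 had -1.10 ± 0.25 (SE; adjusted p = 0.0326). Their lowest values fell on the JulyA and August arrays of subplot 1, which had -1.94 and -1.39 for probe 2096 and -1.69 and -1.35 for probe 938. The 7 calls depended on single arrays: 0 remained without the JulyA array of subplot 1 or without the August array of subplot 1. In each case 1 remained, probe 2951, without the June array of subplot 1 or the JulyA array of subplots 2 and 4.

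Across probes, the mean of plots 2 and 3 as deposited had little in common with the array labelled with 1 plant code in both channels (Pearson r = 0.0700, Spearman rho = 0.156, 2223 probes). Against the deposited means of the other pairs r was highest with plots 11 and 12, at 0.316, then with plots 6 and 9, at 0.124. It was 0.0181 with plots 13 and 15, -0.0678 with plots 4 and 5, and lowest with plots 7 and 10, at -0.216. The turned mean gave r between -0.109 and 0.0896 with these 5 pairs.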

How the data were processed

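Per the labels' protocols, RNA was prepared with an RNeasy kit and labelled by a Genisphere kit, 1 RNA in Cy5 and another in Cy3 on each array. The authors deposited log10 ratios per probe. The scale was settled from the values: taken out of the log, 94.6% to 99.7% of an array's values were quotients of integers with denominators of 1000 or less (tolerance 6e-10 on the log10 scale), and at most 0.214% after a small shift. Neither the ratio's direction nor the image software, the background correction, any filter or the normalization is given in the sources used here. The deposited log10 values were converted to log2 here and not normalized again. Arrays were grouped by the plot in Cy5, from the titles, and numbered within a group in accession order, so no numbers pair them.

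Models used limma 3.58.1 (R 4.3.3) and had a plot coefficient and a dye term, or a mean alone as deposited and turned. Adjustment was Benjamini-Hochberg over all probes tested, with calls at 0.05. Probes entered with values on at least 6 of 8 arrays and at least 2 of each orientation. The test of times needed all 8 arrays, that of subplots at least 3 of each kind, and that against other pairs at least 28 of 34 arrays and 2 of each pair. A gene's mean on an array took all its probes measured there, at least 2, so the probes behind it differed between arrays. The scripts were tested on simulated data. Where the labels name no separate plants, p-values measure the spread between arrays only, and precision is limited by their number.

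Probes were named from the platform's annotation of the value table. Named probes were the 10 annotated ones with the smallest p for each mean and term and 5 for times and subplots, at most 2 per gene, plus every named gene with at least 2 tested probes. Locus groups with at least 5 tested probes were added. The members and lists were chosen with earlier results of these data known. Alternatives were other filters, centring, scaling, blocks for shared codes (duplicateCorrelation, statmod 1.5.0) or times, robust variances, averaging by gene, a fit on all pairs, and leaving out arrays.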

Additional observations from a re-analysis of the deposited data

Results flagged for a closer look

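Means over probes of a gene were checked for an array far from the others, in 89 sets of values. The check flagged 3, a share not above the about 1 in 20 that chance gives. TCTP as deposited was 1.611 on the JulyA array of subplots 2 and 4, and the nearest array was at 0.052. The mean of hsp70-4 turned to plot 2 over plot 3 was 1.012 on the June array of subplot 1, with 0.017 as the nearest. The mean of mbd106 as deposited was 0.618 on the same June array, with 0.024 as the nearest of 6 arrays.

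There were 7 probes that differed between plots 2 and 3 and the other pairs as deposited (limma adjusted p under 0.05). That p measures the spread between arrays within pairs only. The differences were 0.93 for MNB1b (probe 12499), -0.86 for LOC542316 (probe 2840), and, without a symbol, -1.0 for probe 2951, -1.13 for probe 2096, -0.94 for probe 901, -1.02 for probe 938 and -1.10 for probe 2904.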

How the results depend on the processing

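The 0 calls for the plot difference, the turned mean and the subplots were 0 under every alternative run. The dye term (0 calls) gave 1 call on the probes with values on all 8 arrays (probe 826), 170 (121 positive) with a block for shared plant codes, and 1 without both August arrays (LOC542316, probe 6508), the last chosen after seeing the data. Without 1 array it gave 0 to 5: 1 (probe 14843) without the JulyB array of subplots 2 and 4, and 5 without the August array of subplot 1, all but LOC542316 (probe 6508) unnamed. The mean as deposited (0 calls) gave 3 on the probes with values on all 8 arrays (826, 901 and LOC542316 probe 2840), 300 (212 positive) with the code block, 2 with probes averaged per gene (14843 and 826) and 11 (9 positive, MNB1b probes 7688 and 12499 among them) in a fit on all pairs. Without 1 array it gave 0 to 1, with probe 14843 called without the JulyB array or without the August array of subplots 2 and 4. The block correlations were -0.142 and -0.153, and a negative value makes the standard error of these terms smaller. The 170 and 300 calls are therefore not counts that allow for likeness between arrays of shared codes. The test of times (0 calls) gave 0 to 17 without 1 array: 10 without the August array of subplot 1 and 17 without the other, 4 of MNB1b in each (probes 2554, 2579, 4959 and 10564). That leaves August with 1 array, assumed to vary like the rest. The 7 calls against the other pairs were 2 on the probes measured on all arrays (901 and LOC542316 probe 2840) and 0 to 10 without 1 array. The causes of the other shifts were not tested.

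Centring on the tested probes, chosen after seeing the data, removed array medians of up to 0.21. Of 935 values of named probes under the alternatives, 29 lost a call and 30 gained one. Outside the test of times 0 turned their direction, and in that test such turns were not counted. There MNB1b probe 2579, for example, was higher in JulyB than in June as deposited and lower when turned. The 36 gene means moved by less than the spread between arrays. For the test of times, requiring all 8 arrays is already its filter. The labels give no replicate numbers to pair arrays by. Sampling times and shared codes, which they do give, served as blocks. With time as a block the subplots gave 0 calls and 34 of 775 at an unadjusted p under 0.05. With a block for times the plot difference, dye term and both means gave 0 calls. The arrays form 2 sets of shared codes, and the deposited values hold no signal over background.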
